A study of Homo sapiens with 6 samples.

Results

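E2F7 binding was compared between Ras-induced senescent IMR90 cells carrying a hairpin against RB and quiescent IMR90 cells, from the peak lists of 1 chromatin immunoprecipitation sequencing (ChIP-seq) library each. IMR90 is a human fetal lung fibroblast line. The label of the senescent sample names Ras and the RB hairpin as its treatment, and that of the quiescent sample gives none. A protocol note repeated on every sample, the quiescent one included, describes an ER-Ras vector, hairpins and collection 4 days after tamoxifen, which activates the ER-Ras fusion. It does not say which samples it covers, and how quiescence was reached is not given in the sources used here. Both libraries were made with 10 µg of the same E2F7 antibody. Senescent cells that kept RB were not analysed here, so Ras, senescence, the RB hairpin and, if only the senescent cells received it, tamoxifen cannot be told apart in any difference between the 2 libraries. A growing-cell library, with no treatment in its label, served only to describe the regions found.

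Peaks were taken from chromosomes 1 to 22 and X, 43643 from the RB knockdown list and 10225 from the quiescent list, out of 63334 peaks in the 3 lists of the series on these chromosomes. Peaks of the 2 lists that overlapped by 1 bp or more were joined, which gave 47699 regions. Of these, 5571 (11.7%) held peaks of both lists, 37513 (78.6%) held an RB knockdown peak alone and 4615 (9.68%) a quiescent peak alone. With 1 library per state there was no replicate error. Every difference below is between these 2 libraries. Intervals of single tag ratios cover counting error only. Those of medians and shares treat regions, peaks or pairs as independent draws, and none covers variation between libraries.

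E2F7 is an atypical E2F protein. It carries a pair of DNA-binding domains, binds E2F sites without the DP partner that classical E2Fs need, lacks the region through which RB binds classical E2Fs, and represses transcription. RB holds the activating E2Fs in check in arrested cells, and the E2F7 gene is itself a target of those E2Fs. Quiescence is an arrest that cells can leave when growth signals return, whereas senescence is a lasting arrest that oncogenic Ras can bring about.

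The caller worked with a fragment length (d) that was 0.625 times as long for the RB knockdown library as for the quiescent library, where it was 200 bp, and this setting bears on every width and every tag count per peak. The narrowest peak was 153 bp in the RB knockdown list and 342 bp in the quiescent list. Tags were therefore given in 2 ways. Scaled tags are the tags inside a peak per 1000000 filtered tags of the library (23379790 with RB knockdown and 25212239 in quiescent cells), and tag density is scaled tags per kb of the list's own peaks in the region. Effects of d and of the cell state on width, density and fold enrichment over local background cannot be told apart. The libraries also differed in other ways. Filtering removed 10.2% of the RB knockdown tags and 4.47% of the quiescent tags. Of the filtered tags, 9.98% lay in peaks with RB knockdown and 2.74% in quiescent cells. How these differences bear on peak number and FDR was not tested.

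Where both lists had a peak, they placed nearly the same number of tags there. The 5571 joined regions held a median of 63 tags in the RB knockdown list (2.69 scaled tags) and 71 tags in the quiescent list (2.82 scaled tags). The median log2 ratio of RB knockdown over quiescent was -0.029 (95% order-statistic interval -0.048 to -0.0043), with quartiles of -0.45 and 0.38. More scaled tags lay in the RB knockdown list in 48.3% of the regions (95% exact binomial interval 47.0% to 49.7%). A region was counted as higher or lower when its scaled tags differed by at least 2-fold. By that rule 302 regions (5.42%) were higher with RB knockdown and 415 (7.45%) were lower. Tags were counted within each list's own peaks, a median of 854 bp per region with RB knockdown and 1294 bp in quiescent cells. Over these unequal spans, the 4.27 times as many RB knockdown peaks were not accompanied by more tags at a typical joined region. This balance depends on which peaks are listed. With the RB knockdown list cut to its 10225 peaks of lowest p, the median log2 ratio was 0.21 over 3325 regions. It also depends on the scaling. Dividing by the tags in peaks of each list, in place of all filtered tags, lowers every log2 ratio given here by 1.86, and the median to -1.89.

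The RB knockdown peaks were narrower, and denser per filtered tag. Joined regions carried a median of 854 bp of RB knockdown peaks (quartiles 632 and 1270) and 1294 bp of quiescent peaks (1023 and 1757). Median tag density was 2.92 scaled tags per kb with RB knockdown and 2.04 in quiescent cells. The median log2 ratio of density was 0.51 (0.50 to 0.52), and density was higher with RB knockdown in 93.9% of the regions. The direction turned when tags were scaled by the tags in peaks, to a median of -1.35. By the same 2-fold rule 530 regions (9.51%) had a higher density with RB knockdown and 1 region (0.018%) a lower one.

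**Figure D1:**
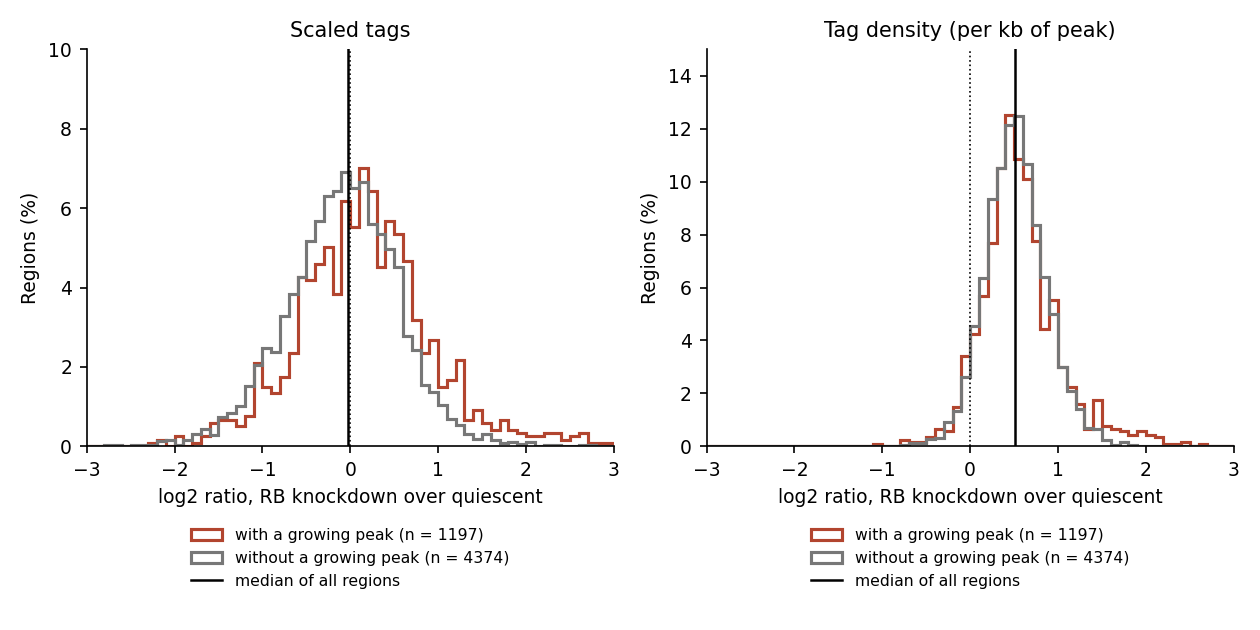
Distribution of the log2 ratio of RB knockdown over quiescent across the 5571 regions with a peak in both lists, for scaled tags (left) and tag density (right), as the percent of regions per bin of 0.1. Red outlines regions that also had a growing peak (n = 1197), grey those without (n = 4374), and the solid line marks the median of all regions, at -0.029 for tags and 0.51 for density.

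Most joined regions were simple pairs. In 5076 of them (91.1%) 1 peak of each list overlapped only the other. A single quiescent peak faced several RB knockdown peaks, up to 5, in 458 regions (8.22%), while the reverse was found in 11 regions. The RB knockdown peak lay wholly inside the quiescent peak in 3436 of the 5076 pairs (67.7%), and the quiescent peak inside the RB knockdown peak in 200 (3.94%). The overlap rule was rarely decided by a few bases. Only 9 pairs overlapped by 50 bp or less, with medians of 24 tags in the RB knockdown peaks and 29 in the quiescent peaks, and 39 RB knockdown peaks and 7 quiescent peaks without a partner lay within 50 bp of the other list.

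The summits, the points of highest tag pile-up, lay close together. Their median distance was 51 bp in the 5076 pairs (quartiles 21 and 121), with 83.1% of the summits within 200 bp of each other and 1.71% over 1000 bp apart. Pairs with a taller quiescent peak had closer summits. In the 20% of pairs with the highest quiescent fold enrichment over local background the median distance was 33 bp, against 114 bp in the lowest 20%. Across the pairs the scaled tags of the 2 libraries had a Spearman rho of 0.76 (n = 5076 pairs, a description of sites that share mappability and width).

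The 3 largest regions that were not simple pairs were long. On chromosome 15, 37657607 to 37680339, there were 4842 RB knockdown tags in 2 peaks against 2789 tags in 1 quiescent peak, or 207 and 111 scaled tags. This was the quiescent peak with the most tags, and no growing peak lay there. On chromosome 11, 62036796 to 62056228, scaled tags were 217 with RB knockdown and 79.4 in quiescent cells, and on chromosome 1, 85814294 to 85826581, they were 98.1 and 71.4. All 3 regions had more scaled tags with RB knockdown, with log2 ratios of 0.90, 1.45 and 0.46.

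The 10 pairs with the highest sum of scaled tags all favoured the RB knockdown library, with log2 ratios from 0.17 to 2.99. They were wide, with RB knockdown peaks of 3634 to 13064 bp and quiescent peaks of 3083 to 12699 bp. A growing peak lay at 972 of all 5076 pairs, and at 32.0% of the 20% with the most summed scaled tags. All 10 wide pairs had one. The largest, on chromosome 11 at 65020420 to 65033807, had 5250 tags with RB knockdown and 2422 in quiescent cells (225 and 96.1 scaled tags, log2 ratio 1.22, exact conditional interval 1.16 to 1.30), and the 2 summits were 2 bp apart. The pair on chromosome 12 at 123958916 to 123962549 held 3458 and 1521 tags, with 57.2-fold and 23.8-fold enrichment. The smallest difference among the 10 was on chromosome 1 at 59015382 to 59024911, with 1213 and 1159 tags (log2 ratio 0.17, 0.06 to 0.29). The ratio moved with the summed tags across all pairs, a sum that holds the RB knockdown tags of the ratio itself. Its median was -0.36 in the 20% with the fewest summed scaled tags and 0.30 in the 20% with the most, where 12.4% of pairs were at least 2-fold higher with RB knockdown. Ranked by quiescent fold enrichment it ran the other way, from 0.037 in the lowest 20% to -0.24 in the highest 20%. The second 20% stood at 0.060, and in the highest 20%, 15.5% of pairs were at least 2-fold lower with RB knockdown. Ranked by RB knockdown fold enrichment the median ratio rose, from -0.30 in the lowest 20% to 0.32 in the highest 20%. Each fold enrichment rests on the tags of 1 side of the ratio, so both trends follow in part from the choice.

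Among the 871 pairs with at least 100 tags in each peak, the 10 with the highest ratio were of 2 shapes. These pairs were picked by their ratio, which is therefore a description. In 3 of them the summits lay 17 to 47 bp apart and both peaks were compact, 1445 to 2490 bp wide with RB knockdown and 1182 to 1638 bp in quiescent cells. The pair on chromosome 10 at 103900926 to 103903415 had 899 tags with RB knockdown and 182 in quiescent cells, 38.5 and 7.22 scaled tags (log2 ratio 2.41, 2.18 to 2.65). The pair on chromosome 6 at 52256674 to 52258664 had 599 and 131 tags (2.30, 2.03 to 2.59), and that on chromosome 22 at 34125354 to 34126798 had 472 and 105 tags (2.28, 1.97 to 2.60). Fold enrichment in these 3 pairs was 67.6 to 86.5 with RB knockdown and 9.90 to 15.9 in quiescent cells, and each also had a growing peak.

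In the other 7 pairs the RB knockdown peak was 4851 to 10801 bp wide, the quiescent peak 2157 to 3465 bp wide, and the summits lay 326 to 8326 bp apart. Their fold enrichment was low in both lists, 4.67 to 15.6 with RB knockdown and 3.54 to 5.48 in quiescent cells. The pair with the highest ratio, on chromosome 2 at 215926751 to 215936001, was of this kind, with 1469 tags over 9251 bp with RB knockdown and 199 tags over 3433 bp in quiescent cells (log2 ratio 2.99, 2.78 to 3.21). Its density ratio was smaller, 1.56 on the log2 scale. The quiescent peak there had a false discovery rate (FDR) of 29.0% which the caller estimates by swapping ChIP and control. On chromosome 10 at 17311175 to 17321975 the tags were 1486 and 217, and the summits were 8326 bp apart, the widest gap of any pair. The 2 lists shared a stretch of overlap at these sites but not a summit.

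The 10 pairs with the lowest ratio had log2 ratios from -1.91 to -0.68, and their intervals all lay below 0. The lowest was on chromosome 16 at 88588000 to 88590511, with 102 tags over 1396 bp with RB knockdown and 414 tags over 2512 bp in quiescent cells (4.36 and 16.4 scaled tags, log2 ratio -1.91, -2.24 to -1.60). It was also the single region of the 5571 with a density at least 2-fold lower with RB knockdown (log2 ratio -1.06). On chromosome 1 at 154452509 to 154453757 there were 168 and 382 tags, with 18.1-fold enrichment with RB knockdown and 41.5-fold in quiescent cells, and the summits were 84 bp apart. In the other 8 pairs the density was higher with RB knockdown, so that fewer tags went with a narrower peak. The pair on chromosome 22 at 35190605 to 35194670 had 185 tags over 745 bp with RB knockdown and 333 tags over 4033 bp in quiescent cells, with the summits at the same base.

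**Figure D2:**
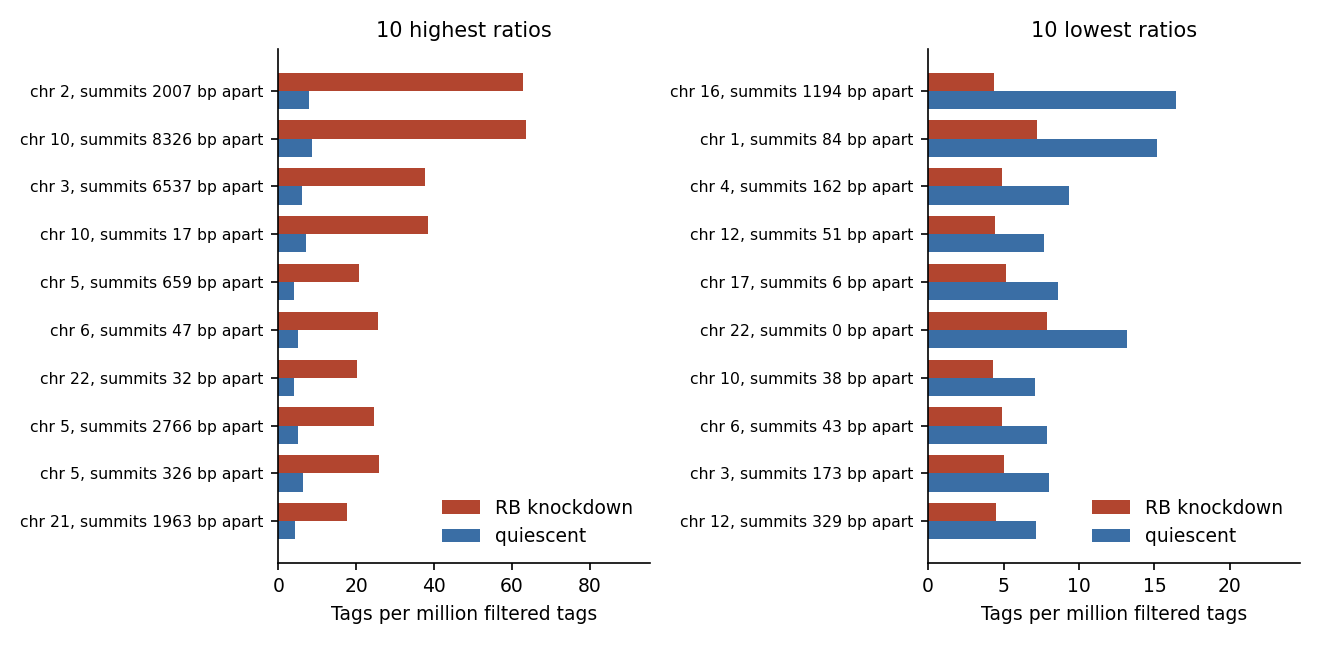
Scaled tags (tags per 1000000 filtered tags) in the RB knockdown peak (red) and the quiescent peak (blue) of the 10 one-to-one pairs with the highest ratio (left) and the 10 with the lowest (right), among 871 pairs with at least 100 tags in each peak. Row labels give the chromosome and the distance between summits. At left the RB knockdown bars run from 17.8 to 63.6, at right from 4.28 to 7.91, and the 2 panels have different scales.

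Width differed between the 2-fold classes of all 5076 pairs. The classes were cut on tags that also enter density, and a wider peak takes in more tags. Their widths and densities therefore follow in part from the choice. Over all 5076 pairs the RB knockdown peak was the wider one in 11.7%, and density was higher with RB knockdown in 93.8%. The 233 pairs at least 2-fold higher with RB knockdown had median widths of 1480 bp with RB knockdown and 1234 bp in quiescent cells, and the RB knockdown peak was the wider one in 69.5% of them. Density was higher with RB knockdown in all 233 of these pairs, with a median log2 ratio of 1.10. The 402 pairs at least 2-fold lower had median widths of 543 and 1550 bp, and the RB knockdown peak was the wider one in 0 of them. Density was higher with RB knockdown in 304 of these 402 pairs (75.6%). Between these limits lay 4441 pairs, with median widths of 822 and 1224 bp.

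The tallest RB knockdown peaks were few and nearly all had a quiescent partner. Fold enrichment of at least 50, a limit set after the values were seen, was reached by 28 RB knockdown peaks. A quiescent partner was found for 27 of these (96.4%, exact interval 81.7% to 99.9%), against 14.0% of all RB knockdown peaks. In the quiescent list the highest fold enrichment was 43.8. Fold enrichment also differed across the lists, with medians over all 5076 pairs of 8.475 with RB knockdown and 6.45 in quiescent cells. Among the 23 of the 28 that were simple pairs, the summits lay at most 58 bp apart, with a median of 23 bp, and 22 of the RB knockdown peaks were at most 2490 bp wide. Another 4 lay in regions with several peaks, and these include the widest of the 28, a peak of 18687 bp on chromosome 11 from 62037542 to 62056228 with 68.6-fold enrichment. The tallest was on chromosome 2 at 136349606 to 136351183, with 420 tags with RB knockdown and 124 in quiescent cells, and 154-fold and 35.1-fold enrichment. The next were on chromosome 3 at 128799529 to 128800965, with 304 and 91 tags and 129-fold and 16.7-fold enrichment, and on chromosome 6 at 20509014 to 20510591, with 398 and 116 tags and 92.4-fold and 14.3-fold enrichment. Since these pairs were picked by RB knockdown fold enrichment, their higher tags with RB knockdown in 23 of 23 pairs follow in part from the choice. In quiescent cells the pair on chromosome 4 at 8355674 to 8357255 stood highest, at 43.8-fold, against 57.2-fold with RB knockdown, and its tags were alike, 265 and 266 (log2 ratio 0.10, -0.15 to 0.35). The 1 tall peak with no quiescent partner was on chromosome 16 at 87397357 to 87397967, with 199 tags and 90.2-fold enrichment. The nearest quiescent peak was 7.57 kb away, and a growing peak lay there.

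**Figure D3:**
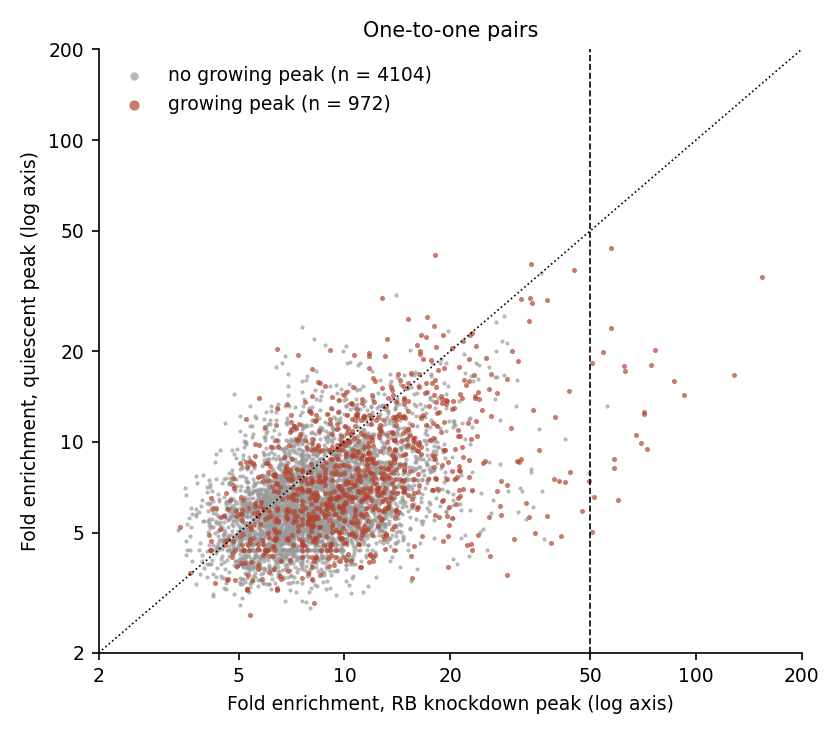
Fold enrichment over local background of the 5076 one-to-one pairs, RB knockdown peak on the horizontal and quiescent peak on the vertical axis, both logarithmic. Red pairs also had a growing peak (n = 972), the dotted line marks equal values and the dashed line 50-fold. The 23 pairs right of the dashed line reach 154-fold with RB knockdown and at most 43.8-fold in quiescent cells, and 22 of them are red.

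Whether a peak had a partner went with its rank in its own list. Of RB knockdown peaks, 14.0% had a quiescent partner (13.7% to 14.4%), and of quiescent peaks 54.9% had an RB knockdown partner (53.9% to 55.8%). With both lists at 10225 peaks they were 34.0% and 32.8%, and with peaks above an FDR of 5% left out 4.14% and 83.1%. By the caller's p score, which is 10 times the negative log10 of p, these shares were 47.3% and 88.9% in the strongest 10% of each list, and in the weakest 10% 4.28% and 32.6%. Partner shares also went with width, at 28.1% and 88.7% in the widest 10% and 1.95% and 11.8% in the narrowest 10%, and a wide peak meets the overlap rule more easily. By fold enrichment, which depends less on width, RB knockdown peaks had partners in 7.47% below 5-fold, 11.6% from 5 to 10-fold, 29.9% from 10 to 20-fold and 66.9% from 20 to 50-fold. For quiescent peaks the shares in the same 4 classes were 58.1%, 51.1%, 75.5% and 91.7%. The lowest class was not the one with the smallest share there, and it was the widest, with a median of 1403 bp against 1015 bp for 5 to 10-fold.

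**Figure D4:**
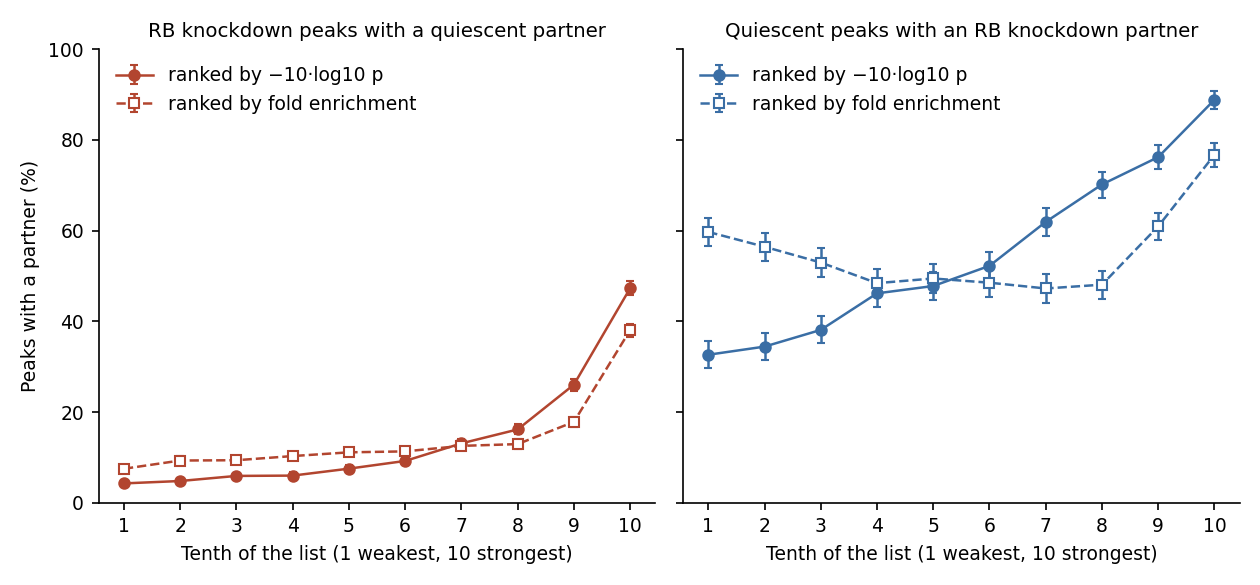
Percent of RB knockdown peaks with a quiescent partner (left) and of quiescent peaks with an RB knockdown partner (right), for each successive 10% of the list ranked by p score (filled circles) or by fold enrichment (open squares), with 95% exact binomial intervals. Ranked by p score the shares climb from 4.28% to 47.3% at left and from 32.6% to 88.9% at right, and ranked by fold enrichment the right-hand shares dip in the middle of the list.

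Partner shares also followed the FDR, which ran up to 5.1% in the RB knockdown list and 53.7% in the quiescent list. Of 373 quiescent peaks with an FDR of 0%, 356 (95.4%, 92.8% to 97.3%) had an RB knockdown partner, and of 2861 with an FDR above 40%, 35.3% (33.6% to 37.1%). Of 1490 RB knockdown peaks with an FDR of 0%, 63.5% (61.0% to 65.9%) had a quiescent partner. Thus 544 of the 1490 RB knockdown peaks with an FDR of 0% had no quiescent peak past the threshold. In the reverse direction it was 17 of 373. Over all peaks, 86.0% of the RB knockdown list and 45.1% of the quiescent list had no partner. The FDR ranges of the lists differ, so an FDR of 0% need not be a like limit, and these counts are not directly comparable.

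Peaks without a partner were smaller in both lists. RB knockdown peaks without one had a median of 35 tags against 59 for those with one, a median width of 622 bp against 828 bp and a median fold enrichment of 6.98 against 8.27. Quiescent peaks without one had 33 tags against 71, 893 bp against 1293 bp, and 6.27-fold against 6.41-fold. An FDR of at most 5% was given to 97.7% of the RB knockdown peaks without a partner, against 98.0% of all RB knockdown peaks, in a list whose FDR never exceeded 5.1%. For quiescent peaks these shares were 6.54% and 17.8%. The unpartnered RB knockdown peaks held 76.7% of all tags in the peaks of their list, and the unpartnered quiescent peaks 26.6% of theirs. From unpartnered quiescent peaks the nearest RB knockdown peak was a median of 15.7 kb away, and 37.4% had one within 10 kb. From unpartnered RB knockdown peaks the nearest quiescent peak was a median of 61.0 kb away. Both distances depend on the number of peaks in the other list, 43643 with RB knockdown and 10225 in quiescent cells. Whether the peaks lay nearer than these numbers alone would place them was not tested.

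The 10 RB knockdown peaks without a partner that had the most scaled tags were long, 3364 to 13824 bp, with 728 to 1585 tags and 6.93-fold to 14.2-fold enrichment. The first was on chromosome 7 at 93887824 to 93901647, with 1585 tags (67.8 scaled tags) and 14.2-fold enrichment, and a growing peak of 646 tags lay there. A second site on chromosome 7 held 2 of the 10, a peak of 823 tags from 130234054 to 130240799 and, 2873 bp on, one of 1082 tags from 130243673 to 130249975. Another 2 were 82.1 kb apart on chromosome 11, where the peak from 121461024 to 121468216 had 733 tags and that from 121550350 to 121557139 had 860. The densest of the 10 was on chromosome 17 at 38792112 to 38795475, with 867 tags in 3364 bp. An FDR of 0% was given to 9 of the 10, and 4 had a growing peak. That share was 3.02% over all regions with RB knockdown alone, which had a median width of 622 bp. Among those of at least 5000 bp it was 11 of 31 (35.5%). Regions of at least 5000 bp were no more frequent among those with RB knockdown peaks alone (31 of 37513, 0.0826%) than among those with quiescent peaks alone (5 of 4615, 0.108%), and made up 103 of the 5571 regions in both lists (1.85%). Chromosome 7, which held 5.01% of RB knockdown and 4.73% of quiescent peaks, had 7 of the 31 and 2 of the 5 wide regions.

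The 10 quiescent peaks without a partner that had the most scaled tags were 2766 to 7744 bp wide, with 258 to 816 tags. In 9 of them fold enrichment was between 3.05 and 6.17, where the median of all unpartnered quiescent peaks was 6.27. An FDR above 5% was given to 7 of the 10, against 93.5% of all unpartnered quiescent peaks. The first, on chromosome 1 at 141476809 to 141484552, had 816 tags (32.4 scaled tags), 3.05-fold enrichment and an FDR of 50.1%. Others lay near each other on chromosome 16, at 33862542 to 33869111 (631 tags) and at 33880757 to 33884761 (295 tags). Those on chromosome 7 were much further apart, at 57550899 to 57555909 (264 tags) and 61380473 to 61385514 (272 tags). Of the 10, 3 bordered or lay within 1 Mb of a stretch of at least 2 Mb with no peak in any of the 3 lists, of which there were 58. Over all peaks the share was alike, 2.71% of the 4615 quiescent peaks without a partner (2.26% to 3.22%) and 2.57% of the 5610 with one (2.17% to 3.02%). With at least 150 tags it was 6 of 27 (22.2%, 8.62% to 42.3%) and 12 of 617 (1.94%), and the 6 include the 3 peaks that led to this count. An FDR of at most 5% was given to 3 of the 10. These were on chromosome 17 at 42567499 to 42570264, with 276 tags, 8.21-fold enrichment and an FDR of 0.32%, on chromosome 2 at 132734939 to 132737957, with 336 tags, 6.17-fold and 1.09%, and on chromosome 17 at 22286979 to 22292440, with 591 tags, 3.96-fold and 0%.

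Growing cells gave a further readout that had no part in pairing the peaks, although its list rests on the control library of the other 2. A growing peak was found at 21.5% of the regions in both lists (1197 of 5571, 20.4% to 22.6%), at 3.02% of those with RB knockdown alone (2.85% to 3.20%) and at 4.46% of those with quiescent alone (3.89% to 5.10%). With growing peaks of a p score of at least 100 the shares were 8.67%, 0.509% and 0.780%. Regions in both lists were also wider, with a median of 1365 bp against 622 bp and 893 bp. By RB knockdown fold enrichment the share of peaks with a growing peak was 2.89% below 5-fold, 4.39% from 5 to 10-fold, 12.0% from 10 to 20-fold, 51.9% from 20 to 50-fold and 92.9% at 50-fold or more (26 of 28). In that last class the median width was 1410 bp. At the 22 of the 23 tall pairs with a growing peak, that peak held a median of 93.5 tags (31 to 567) and 11.7-fold enrichment.

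Regions that also had a growing peak leaned to the RB knockdown library in scaled tags. Their median log2 ratio of scaled tags was 0.14 (0.11 to 0.19, n = 1197), against -0.068 (-0.090 to -0.048, n = 4374) for regions without one. Growing peaks went with size, and lay at 32.0% of the 20% of pairs with the most summed scaled tags and at 12.3% of the 20% with the fewest. The part of size in the difference was not tested. At least 2-fold higher with RB knockdown were 138 of the 1197 (11.5%), against 5.42% of all joined regions, and at least 2-fold lower were 73 (6.10%), against 7.45%. In tag density the 2 sets were close, with medians of 0.52 (0.49 to 0.54) and 0.51 (0.50 to 0.52), and 13.5% and 8.44% of regions at least 2-fold higher.

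Partner shares varied along the genome. Of quiescent peaks, 65.8% had an RB knockdown partner on chromosome 19 (60.7% to 70.6%) and 64.1% on chromosome 17 (59.7% to 68.4%), but 41.4% on chromosome X (36.1% to 46.8%) and 44.1% on chromosome 21 (35.8% to 52.6%). Of RB knockdown peaks, the share with a quiescent partner ran from 11.8% on chromosome 20 to 19.7% on chromosome 19. Chromosome X held 884 RB knockdown and 336 quiescent peaks, 2.63 times as many, the lowest ratio of the 23 chromosomes, where the highest was 5.47 on chromosome 20. Its joined regions had a median log2 ratio of scaled tags of -0.23 (-0.41 to -0.091, n = 139), close to that of chromosome 18, -0.20 (-0.33 to -0.049, n = 115). The median was positive on 8 chromosomes and negative on 15, with the highest value, 0.11, on chromosomes 17 and 19. The median density ratio was positive on all 23, from 0.45 to 0.56.

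**Figure D5:**
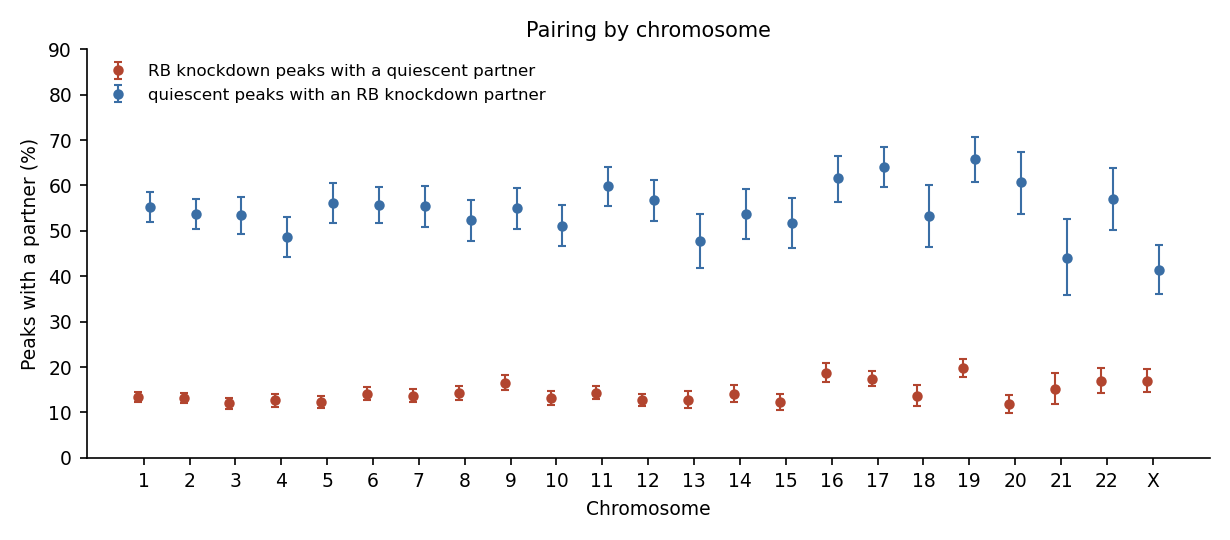
Percent of RB knockdown peaks with a quiescent partner (red) and of quiescent peaks with an RB knockdown partner (blue) on each chromosome, with 95% exact binomial intervals. Red shares run from 11.8% on chromosome 20 to 19.7% on chromosome 19, and blue shares from 41.4% on chromosome X to 65.8% on chromosome 19.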

How the data were processed

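The submitters' processing notes name Bowtie and the hg18 build for the alignment. Peaks of each library alone were called by the authors in MACS 1.4.1, as the headers of the files record, against a control library that the 3 lists share and that the headers do not identify, at a p cutoff of 1e-05 with at most 2 tags per position. The deposited values are the tag count per peak, the p score (10 times the negative log10 of p), fold enrichment as a ratio to local background, the FDR in percent, and positions in bp. The 5 RB knockdown, 17 quiescent and 15 growing peaks on chromosome Y were left out.

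Tag counts were divided by the filtered tags of each header. Joining, ratios and intervals were computed with Python 3.11.15 and scipy 1.17.1, and the joining was checked on made-up peaks. Intervals are exact binomial for shares, order-statistic for medians and exact conditional for ratios of 2 tag counts. Tags are not independent molecules. Named regions were, by rule, the 10 pairs with the highest sum, the 10 highest and 10 lowest ratios, and the 10 unpartnered peaks with the most scaled tags per list. The members, rules and limits were chosen with earlier results of these data known. No annotation or genome of hg18 was at hand, so the planned counts at gene promoters were not run, no region was given a gene, and no sequence is printed. Alternatives were other peak thresholds, overlap rules, scalings and pairings.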

Additional observations from a re-analysis of the deposited data

How the results depend on the processing

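No paired analysis was possible because each state had 1 library. Of 48 alternative values, 6 stayed within their margin, 39 moved beyond it and 3 changed direction. The margin was the 95% interval of the main value, or 1.5-fold for list ratios.

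Tightening both lists to a p score of at least 100 gave 62.1% of quiescent and 14.9% of RB knockdown peaks with a partner, a median log2 density ratio of 0.49 and a median summit distance of 40 bp. An FDR of at most 5% gave 83.1% and 4.14%, a tag ratio of -0.13 with 41.2% of regions higher with RB knockdown, a density ratio of 0.35 and 38 bp, with 23.5 times as many RB knockdown as quiescent peaks over 9.83 times the sequence. A fold enrichment of at least 10 gave 53.6% and 8.14%, -0.13, 39.6%, 0.46, 27 bp, and 6.75 times as many peaks.

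Lists of equal length gave 32.8% and 34.0%, a tag ratio that turned to 0.21 with 65.9% of regions higher, a density ratio of 0.65, 44 bp, and 0.914 times the sequence, with the number ratio fixed. Weak RB knockdown peaks are absent there by construction. Reciprocal overlap of at least 50% gave 39.5% and 9.25%, and summits within 200 bp 45.0% and 10.5%. Pairs of peaks at most 1000 bp wide had summits 47 bp apart.

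Scaling by total tags shifted every log2 ratio by -0.09, to medians of -0.12 (42.5% higher) and 0.42 for density. Scaling by tags in peaks shifted them by -1.86, to -1.89 (0.826% higher), and turned the density ratio to -1.35. That scaling moves with how much was called. One-to-one pairs alone gave -0.057 and 46.1%. Growing peaks of a p score of at least 100 lay at 8.67% of regions in both lists, 0.509% with RB knockdown alone and 0.780% with quiescent alone.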
